A study of Ovis aries with 20 samples.

Results

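The interventricular septum was compared with the left ventricle (LV) in newborn lambs whose mothers had been given cortisol, by setting the septum array of each lamb against the LV array of the same lamb. The comparison used 10 of the 20 arrays of the series, an LV and a septum array from each of 5 lambs. They were paired by replicate number, which was taken to identify the lamb. The ewes of these singleton lambs received 1 mg/kg per day of cortisol, the main adrenal glucocorticoid, from about gestation day 115 until birth, and the lambs were killed between 10 and 480 min after birth. The 5 control lambs, from ewes infused with vehicle over the same time, gave the other 10 arrays and served as the most similar comparison. Titles of all samples carry the word telemetry, and the labels give neither the time of death nor other treatments for single lambs. Each array was hybridised with cyanine-3-labelled RNA of 1 region, and the labels do not say from which part of the LV it was taken.

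The septum and the free wall of the LV pump together, but they form in different ways. The free wall grows outward by ballooning of the early ventricle, and the septum arises between the chambers with contributions from both sides. In the embryo, transcription factors such as HAND1 mark the outer curvature of the LV and are absent from the septum. Around birth the pressure load of the LV rises and the heart changes from carbohydrate to fatty acid fuel, while fibroblasts lay down fibrillar collagen and vessels and muscle cells lay down basement membrane.

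Values are the log2 processed signal of a probe minus the 75th percentile of its array, so a value of 0 lies at that percentile, and septum minus LV is a log2 difference within a lamb. A probe was tested if it was well above background on 5 or more of the 10 arrays, which held for 9902 of 15008 probes. Only 1616 of all probes (10.8%) could be given a gene name, and 633 named genes were tested. Between 57.9% and 70.5% of the spots of an array passed that mark. In bulk tissue, fewer cells of a type and less RNA per cell cannot be told apart.

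The 20 leading genes, those with the smallest unadjusted p among genes of 1 sign in every lamb measured, were lower in septum than in LV in 18 cases and higher in 2. Among the lower ones were the ventricular transcription factor HAND1, the fatty acid enzyme CPT1A and the collagens COL3A1, COL1A2, COL4A1 and COL4A2. UCP1, also among the 18, reached the filter through its LV signal, with septum values mostly at background. None of the 20 passed the test. In limma with lamb as a block, 0 of 9902 probes (0%) had an adjusted p under 0.05, and the lowest adjusted p was 0.308. An unadjusted p under 0.05 was found for 1016 probes (10.3%). The direction was shared by 5 of 5 lambs for 1266 of the 9813 probes measured in every lamb (12.9%), with 467 lower (4.76%) and 799 higher (8.14%) in septum. The median difference over all probes tested was 0.03 and the median standard deviation between lambs was 0.36. LV and septum values of the 5 lambs did not overlap for 32 probes (0.326%), and each of the genes named here overlapped.

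The probes behind the collagen and HAND1 values are shown because these genes are described first. Chains of collagen carry a glycine in each Gly-X-Y repeat of their helix. Glycine codons have the form GGN, with any base at N, and capitals mark the GGN codons that recur once per repeat in 1 reading frame of the probe, 5′ to 3′ as the scanner files give it. All repeats within the probe had such a codon in each of the 4 collagen probes and in 24 of 15008 probes (0.16%) on the whole array. The HAND1 probe has no marked feature.
COL3A1: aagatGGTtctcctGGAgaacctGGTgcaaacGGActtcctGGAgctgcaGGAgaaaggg
COL1A2: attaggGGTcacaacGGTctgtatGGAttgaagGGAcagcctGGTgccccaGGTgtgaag
COL4A1: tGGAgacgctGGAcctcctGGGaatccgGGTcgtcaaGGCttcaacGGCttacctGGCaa
COL4A2: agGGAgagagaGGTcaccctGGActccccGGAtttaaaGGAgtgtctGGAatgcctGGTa
HAND1: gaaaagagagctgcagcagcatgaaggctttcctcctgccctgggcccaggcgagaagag

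HAND1, a basic helix-loop-helix transcription factor of the developing LV, stood in LV at 0.55, -0.87, 0.26, -1.34 and -1.83 in cortisol 1 to 5. In septum the same lambs had -1.53, -1.92, -1.12, -2.93 and -2.32. Each lamb was lower in septum, by least in cortisol 5, whose LV value was the lowest of the 5, and the ranges of the regions overlapped. The difference was -1.32 ± 0.23 (SE, n = 5 lambs), and in limma its adjusted p was 0.318. The gene's other probe gave -1.56 ± 0.24, lower in 5 of 5 lambs. In control lambs HAND1 was -1.25, -1.13, -1.62, -1.65 and -1.74, with a mean of -1.48 that passed the test (adjusted p = 0.00281 in limma). Of 36 factors listed for chamber identity 3 were tested, with a median of 0.06 that took both signs over the scaling, background and lamb alternatives (-0.12 to 0.17). Such a range is given below for each list whose median crossed or reached 0. NR2F2, an atrial and venous factor, stood at 0.38 ± 0.20, and CITED2, a transcriptional coactivator named after its value was seen, at 0.06 ± 0.25.

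**Figure D1:**
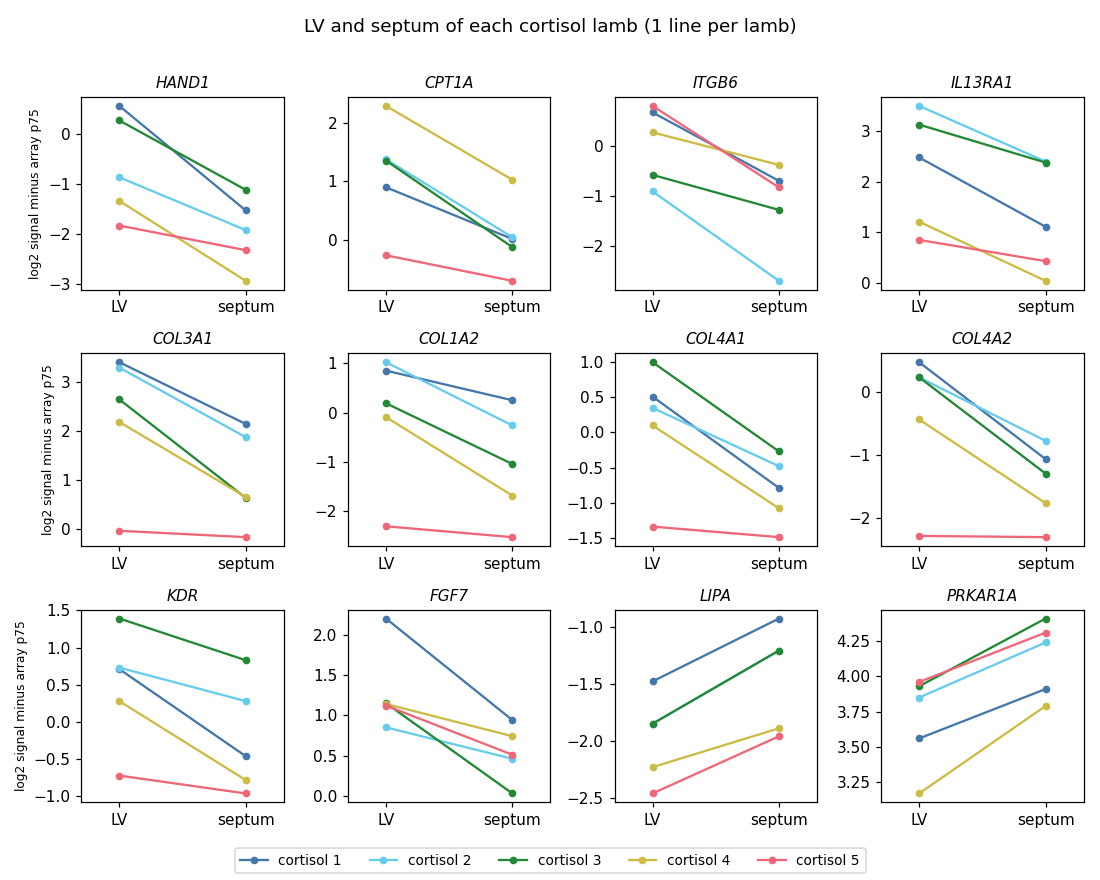
Log2 signal minus the array's 75th percentile (y axis, scaled for each gene) in LV and septum (x axis) for 12 of the 20 leading genes, with 1 line for each of the 5 cortisol lambs. In the 10 genes that are lower in septum every line goes down, and for the collagens the line of cortisol 5 starts lowest and is nearly flat; in LIPA the lines of cortisol 2 and 3 lie on each other.

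COL3A1, COL1A2, COL4A1 and COL4A2 had lower values in septum in 5 of 5 lambs, with the smallest difference in cortisol 5, and none passed. COL3A1, the fibrillar collagen of elastic tissues, stood in LV at 3.41, 3.30, 2.65, 2.19 and -0.03 in cortisol 1 to 5, and in septum at 2.15, 1.88, 0.64, 0.66 and -0.16. Cortisol 5 was the lowest lamb in both regions, and its difference was -0.13 where the other lambs had -2.01 to -1.26. The difference over the 5 lambs was -1.27 ± 0.26 (SE), and -1.55 without cortisol 5. The other 3 probes of COL3A1 were negative too. COL1A2, a chain of collagen I, had differences of -0.60, -1.28, -1.23, -1.60 and -0.21 in cortisol 1 to 5 (mean -0.98 ± 0.22).

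COL4A1 and COL4A2, the paired chains of basement membrane collagen, had similar values. COL4A1 had differences of -1.31, -0.83, -1.27, -1.18 and -0.14 (mean -0.95 ± 0.19). COL4A2 had -1.54, -1.01, -1.53, -1.33 and -0.02 (mean -1.09 ± 0.24). Cortisol 5 again had the smallest difference and the lowest LV value of the 5 lambs. NTN4, a laminin-related netrin of basement membranes, was lower in septum in 5 of 5 lambs, from -2.46 to -0.42 (mean -1.29 ± 0.29), and cortisol 5 lay inside that range with -1.21. COL1A1, the main chain of collagen I, stood at -0.57 ± 0.21 and was lower in 4 of 5 lambs.

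Other matrix genes, some of them collagens, did not have these lower values. Of the 18 tested genes of the collagen and extracellular matrix list, 11 had lower and 7 higher values in septum, 0 passed, and the median was -0.10, where all probes had 0.03. The proteoglycans DCN (-0.02 ± 0.13) and BGN (0.05 ± 0.22) and the fibrillar collagen COL5A2 (0.01 ± 0.12), named after their values were seen, had differences close to 0. COL12A1, a collagen bound to fibrils, stood at 0.93 ± 0.46, with 2.89, 0.68, 1.58, -0.21 and -0.31 in cortisol 1 to 5, and COL6A1, a chain of microfibrillar collagen, at 0.18 ± 0.18, both also named after their values were seen. In control lambs 6 of the 18 passed as lower and 1 as higher, where 11.5% and 7.32% of all probes did. Of 6 fibroblast markers 5 were negative (median -0.40), 3 of the 5 being collagen chains, and the positive one was FBLN1 (0.27 ± 0.13), higher in 5 of 5 lambs. The summed level of the 6 markers, as multiples of the array's 75th percentile, was 32.6 to 92.4 in LV and 33.2 to 74.1 in septum and was lower in septum in 3 of 5 lambs. The part of fibroblast content in the collagen differences was not tested.

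CPT1A, the carnitine palmitoyltransferase that predominates in the fetal heart and admits long-chain fatty acids to mitochondria, had the smallest unadjusted p of the genes' representing probes. In LV it stood at 0.90, 1.38, 1.36, 2.30 and -0.27 in cortisol 1 to 5, and in septum at 0.01, 0.04, -0.13, 1.03 and -0.71. Cortisol 4 was highest and cortisol 5 lowest in both regions, and each lamb was lower in septum. The difference was -1.08 ± 0.18 (SE, n = 5 lambs; adjusted p = 0.318 in limma), and the gene's other probe gave -1.03 ± 0.15. CPT1B, the muscle form of the same enzyme, named after its value was seen, stood at 0.19 ± 0.12. Among 11 tested genes of fatty acid transport and oxidation 6 were lower and 5 higher (median -0.09, range -0.12 to 0.01).

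Markers of fat cells had lower values in septum in 7 of 7 tested genes (median -0.30), of which UCP1 was tested only because of its LV signal. UCP1, the uncoupling protein of brown fat, stood in LV at -2.48, 1.52, -1.26, -3.95 and -6.02 and in septum at -3.58, -6.13, -6.12, -6.94 and -7.13, and it was well above background on 4 of 5 LV arrays and 1 of 5 septum arrays. Each lamb was lower in septum, and the LV values of the lambs were spread over a wide range. The probe reached the filter through LV, and the fitted difference, -3.54 ± 0.94, sets LV against septum values that were mostly at background, so no size is read from it. FABP4, the fatty acid binding protein of fat and of capillaries, had 0.35, -3.02, -6.81, -1.16 and -2.07 (mean -2.54 ± 0.92). It was well above background on 3 of 5 LV and 2 of 5 septum arrays, so no size is read from FABP4 either. PPARG, the master regulator of fat cells, stood at -0.44 ± 0.26 and was lower in cortisol 1, 2 and 3 and higher in cortisol 4 and 5.

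The summed level of the 7 fat cell markers was 8.07 to 42.9 in LV and 8.72 to 33.2 in septum, lower in septum in 4 of 5 lambs. The part of adherent fat in the other differences was not tested. NPY, a peptide of sympathetic nerves and the 1 nerve marker tested, stood at -0.79 ± 0.27 and was lower in cortisol 1 to 4. Endothelial markers were mixed, with 4 of 6 positive (median 0.05, range -0.04 to 0.06) and a summed level that was lower in septum in 1 of 5 lambs.

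**Figure D2:**
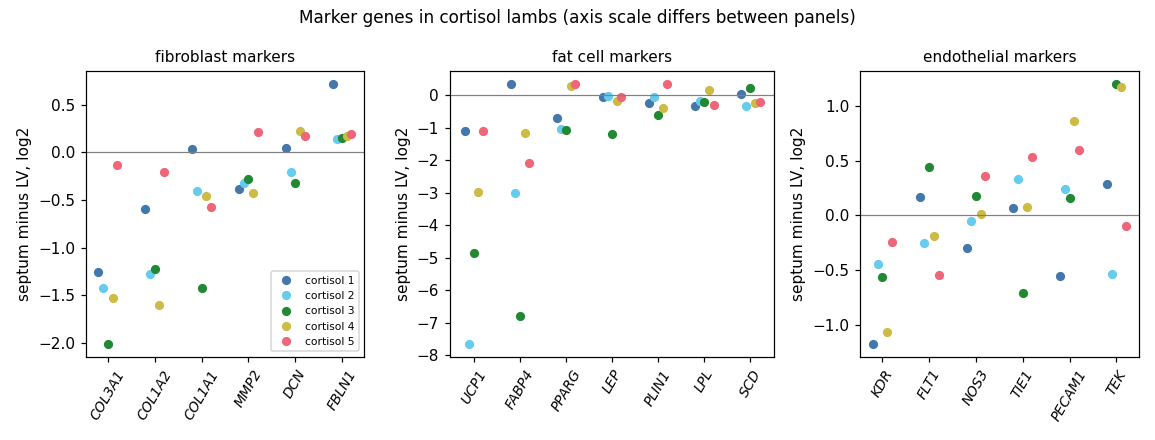
Septum minus LV (y axis, log2, on a different scale in each panel) for every tested marker of fibroblasts, fat cells and endothelium (x axis), with 1 point for each of the 5 cortisol lambs. The fat cell markers UCP1 and FABP4 reach -7.65 and -6.81, but only 1 and 2 of 5 septum arrays were well above background for them, so no size is read. The collagen genes lead the fibroblast panel, and KDR alone is below 0 in every lamb among the endothelial genes.

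Receptors and growth factors made up much of the rest of the leading genes. ITGB6, an integrin chain that activates latent TGF-beta, stood in LV at 0.68, -0.90, -0.57, 0.28 and 0.81 and in septum at -0.69, -2.69, -1.27, -0.37 and -0.82 (difference -1.23 ± 0.21). Here cortisol 5 did not stand apart, with a difference of -1.63. IL13RA1, a receptor chain for interleukins, had -1.38, -1.1, -0.75, -1.17 and -0.42 (mean -0.96 ± 0.16). KDR, the main receptor for vascular endothelial growth factor, had -1.17, -0.44, -0.56, -1.06 and -0.24 (mean -0.70 ± 0.17). The other 3 probes of KDR gave -0.98, -0.03 and 0.07, so its probes disagree. FGF7, a fibroblast growth factor made by mesenchymal cells, stood at -0.76 ± 0.17, with 2 of 3 other probes negative and 1 at 0.09. EGFR, the receptor for epidermal growth factor, stood at -0.61 ± 0.12, well above background on 3 of 5 septum arrays.

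Of 20 tested genes of fibroblast and vascular growth factors 13 were lower and 7 higher in septum (median -0.11). TEK, the angiopoietin receptor, was at 0.41 ± 0.28 and VEGFA, the vascular growth factor, at -0.49 ± 0.37. In the insulin-like growth factor axis 8 of 12 were lower (median -0.15). IGFBP5, a binding protein, was lower in 5 of 5 lambs (-0.46 ± 0.12), IGF1 was lower in 4 of 5 (-0.93 ± 0.33), and INSR, the insulin receptor, was higher in 5 of 5 (0.46 ± 0.13). TGF-beta, activin and BMP genes were 9 lower and 13 higher (median 0.04, range -0.02 to 0.05), with the ligand TGFB2 at -0.43 ± 0.13 and the receptor ACVR1 at 0.39 ± 0.15. Of 9 tested integrin and adhesion genes 6 were higher (median 0.02, range -0.01 to 0.04), and ITGAV, a partner chain of ITGB6, stood at 0.30 ± 0.24.

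The other leading genes that were lower in septum in 5 of 5 lambs were kinases, a clock factor and an enzyme. PIM1, a growth-promoting kinase, stood at -1 ± 0.22, well above background on 4 of 5 septum arrays. PRKG1, the cyclic GMP-dependent kinase, stood at -0.65 ± 0.15 and its other probe at -0.78 ± 0.15. BHLHE40, a transcriptional repressor of the clock, was at -0.49 ± 0.11. GLUD1, mitochondrial glutamate dehydrogenase, was at -0.54 ± 0.12.

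Among the 20 leading genes 2 were higher in septum. LIPA, the lysosomal acid lipase, stood in LV at -1.48, -1.85, -1.85, -2.23 and -2.46 and in septum at -0.93, -1.21, -1.21, -1.89 and -1.96 in cortisol 1 to 5. All lambs moved by a similar step, 0.34 to 0.64, and the mean was 0.54 ± 0.11. PRKAR1A, the regulatory subunit of protein kinase A, had differences of 0.35, 0.39, 0.48, 0.62 and 0.36 (mean 0.44 ± 0.11), while PRKACA, the catalytic subunit, stood at -0.40 ± 0.17. Higher values by a larger step were found for 1 unnamed probe, a sheep expressed sequence tag from fetal skin chosen after its values were seen. It stood in LV at -1.39, -2.62, -2.26, -0.42 and 0.06 and in septum at 0.73, 0.44, 1.31, 1.41 and 1.63, so its regions did not overlap (2.43 ± 0.30, adjusted p = 0.308 in limma). In control lambs the same probe was at 1.91 ± 0.23 and passed (adjusted p = 0.00553 in limma).

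**Figure D3:**
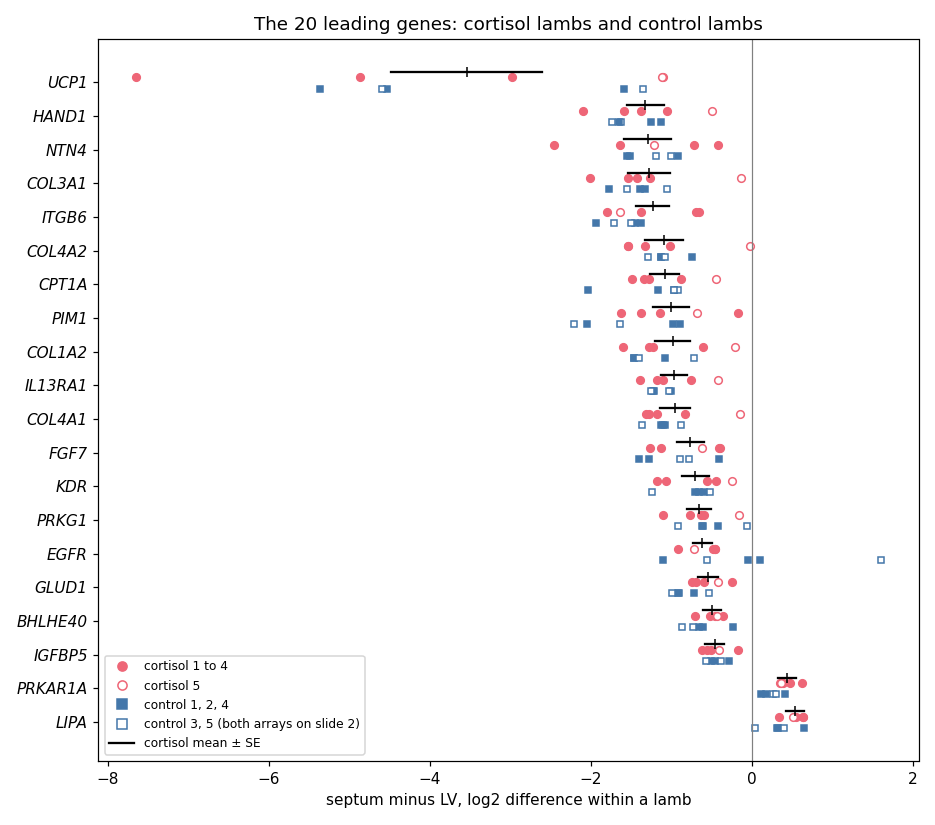
Septum minus LV within a lamb (x axis, log2) for the 20 leading genes (y axis), with circles for cortisol lambs, squares for control lambs and a black bar for the cortisol mean ± SE (n = 5 lambs). In 18 genes all cortisol lambs are below 0 and in 2 all are above 0, and the control lambs fall on the same side in 19 genes, EGFR being the exception. UCP1, among the 18 and the 19, reached the filter through LV and was not tested in controls.

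Of the list of natriuretic peptides and ventricular load 5 genes were tested, all of them endothelin or angiotensin genes and none a natriuretic peptide. All 5 had lower values in septum, with a median of -0.42 that was -0.45 to -0.09 over the alternatives, and AGTR1 and EDNRB stood at -0.03 ± 0.29 and -0.21 ± 0.18. EDN1, the vasoconstrictor endothelin, was lower in 5 of 5 lambs (-0.67 ± 0.20), and AGTR2, the type 2 angiotensin receptor, too (-0.74 ± 0.27, and -0.43 without cortisol 5), with 3 of 5 septum arrays well above background. The corticosteroid list had 3 of 6 members on each side (median 0, range -0.03 to 0.08). NR3C1, the glucocorticoid receptor, stood at 0.22 ± 0.20 and was higher in septum in 4 of 5 lambs, and NR3C2, the mineralocorticoid receptor, at 0.31 ± 0.14, also in 4 of 5. HSD11B1, which regenerates cortisol, stood at -0.21 ± 0.12. HSD11B2, which inactivates it, was at -0.52 ± 0.38, a value that was -0.09 without cortisol 5, and its other probe at -1.24 ± 0.27, with 3 of 5 arrays of each region well above background for that probe. Of 8 glucocorticoid-responsive genes 4 were lower and 4 higher (median 0, range -0.19 to 0), with CEBPB at -0.27 ± 0.16 and RGS2 at 0.25 ± 0.15. The other 2 probes of RGS2 had the opposite sign. ADRB1, the main beta-adrenergic receptor of the heart, was higher in 5 of 5 lambs (0.45 ± 0.17). Of the 3 adrenergic genes tested 2 were higher, and their median of 0.25 is the value of RGS2.

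The contractile and electrical genes that could be measured were few. Of 5 sarcomere genes 3 were lower (median -0.06, range -0.1 to 0.05). TPM1, tropomyosin, had values in both regions of only 2 lambs, since outlier spots were left out (-0.76 ± 0.51), and FHL1, a LIM protein of stretch sensing, stood at -0.20 ± 0.18. Myoglobin, MB, the 1 tested marker of heart muscle cells, stood at 0.05 ± 0.16 in 3 lambs. TNNC2, troponin C of fast skeletal muscle, had 1.06, 0.29, 0.97, -1.94 and 0.18 and a mean of 0.11 ± 0.42, so cortisol 4 opposed the others. The other probe of TNNC2 had the opposite sign (-0.06 ± 0.37). GJA1, connexin 43, stood at -0.03 ± 0.12. Of 6 ion channel and pump genes 4 were higher (median 0.09), among them the sodium pump subunit ATP1B1 (0.23 ± 0.12) and the water channel AQP1 (0.24 ± 0.18). Of 6 calcium genes 3 were lower (median -0.01, range -0.07 to 0.24).

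Metabolic lists had small negative medians. Of 9 genes of oxidative phosphorylation and the Krebs cycle 8 were lower in septum (median -0.14), such as COX5A, a subunit of cytochrome oxidase (-0.32 ± 0.11, in 5 of 5 lambs). The exception, VDAC1, the outer membrane pore, was higher in 5 of 5 (0.29 ± 0.12). Of 6 nuclear receptor and mitochondrial regulator genes 5 were lower (median -0.15), with the oestrogen receptor ESR1 at -0.78 ± 0.47. Glycolysis and glucose uptake were 8 lower and 5 higher (median -0.02, range -0.07 to 0), although the glucose transporter SLC2A3 (0.38 ± 0.13) and the muscle phosphofructokinase PFKM (0.38 ± 0.13) were higher in 5 of 5 lambs. Of 8 hypoxia genes 6 were lower (median -0.07, range -0.1 to 0), among them the cytokine MIF (-0.25 ± 0.13).

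Lists of growth, stress and immunity had medians of either sign. Cell cycle genes were 7 higher and 5 lower (median 0.11, range -0.02 to 0.11), with the cyclin-dependent kinase CDK2 at -0.46 ± 0.13 and the mitotic kinase AURKA at 0.44 ± 0.13, the latter well above background on 2 of 5 LV arrays. Immediate early and stress genes were 6 and 6 (median 0.01, range -0.1 to 0.01), with the chemokine CXCL8 at 0.58 ± 0.17 and the factor JUND at -0.68 ± 0.21. Apoptosis genes were 6 higher and 2 lower (median 0.12), with the death receptor TNFRSF1A at 0.46 ± 0.14. Interferon genes had a median of 0.08 over 7, range 0 to 0.08 (IRF3 0.27 ± 0.13), ribosomal genes of -0.01 over 16 (RPS6 -0.27 ± 0.12, RPS23 0.26 ± 0.12) and actin genes of 0.03 over 5, range -0.21 to 0.06 (CFL1 -0.42 ± 0.23, ACTG1 0.17 ± 0.14). Of the immune markers, CD3D (0.76 ± 0.22) and CD3E (0.31 ± 0.12) of T cells were each higher in septum in 5 of 5 lambs. CD3D was above background on 3 of 5 LV arrays, and the other probe of CD3E had the opposite sign. The list median was 0.31 over 3, and GNLY, its remaining gene, named after its value was seen, stood at -0.24 ± 0.18. In control lambs CD3D and CD3E were at -0.24 and -0.08. Monocyte markers were 3 lower and 3 higher (median -0.14 over 6). CD14 (-0.35 ± 0.17) and FCER1G (-0.32 ± 0.22) were lower, though not in cortisol 5. CD86 (0.07 ± 0.23), CTSS (0.04 ± 0.15) and LYZ (0.07 ± 0.30), named after their values were seen, were higher. Class II markers had a median of -0.02 over 4 (OVAR-DQB -0.38 ± 0.34 with 3 of 5 arrays of each region above background, OVAR-DRA 0.07 ± 0.13). Haemoglobin HBB stood at 0.24 ± 0.17 and was higher in septum in 3 of 5 lambs. Its other probe gave 0.36 ± 0.13, higher in 5 of 5, with an adjusted p of 0.426 in limma.

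The remaining marker lists had 1 or 2 tested genes. They were CNN1 of smooth muscle (0.12 ± 0.41), WT1 of epicardium (0.01 ± 0.13), EPOR beside HBB of red cells (-0.07 ± 0.14), the cathelicidins BAC5 (0.03 ± 0.22) and CATHL3 (0.31 ± 0.27) of neutrophils, and MYOG beside TNNC2 of skeletal muscle (0.44 ± 0.43). No gene of the conduction system or endocardium lists was tested. Over all 633 named genes 302 were lower and 331 higher in septum (median 0.02).

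The comparison of septum minus LV in control lambs shares no array with the cortisol lambs, but it shares slides with them, as given below. It asked whether the regional pattern is also present without cortisol. There 1949 of 10333 probes passed (18.9%), 1193 lower (11.5%) and 756 higher (7.32%) in septum. An unadjusted p under 0.05 was found for 36.9%, and 34.8% had the same sign in 5 of 5 control lambs (18% lower, 16.8% higher). LV and septum did not overlap for 4.94%. The number passing was 1005 to 1251 without any 1 control lamb, 136 with no replicate block, 0 on slide 2 alone and 0 with normexp background. Its highest value over 11 alternatives was 2483. Of the 20 leading genes of the cortisol lambs, 19 were tested in controls and 16 passed, each of them lower in septum. For 19 of 20 the sign was that of the cortisol lambs in 5 of 5 control lambs. UCP1 is counted among the latter 19, although it was not tested in controls and reached the cortisol filter through LV. EGFR differed, with 0.11, -1.1, 1.61, -0.04 and -0.55 in control 1 to 5. The probes that passed lower in controls had a median of -0.55 there and of -0.31 in cortisol lambs, and those that passed higher had 0.40 and 0.28. Without cortisol 5 the cortisol medians were -0.41 and 0.3. The probes were picked by passing in controls, which favours large control values, so these medians cannot measure a change of size after cortisol. Of the 1889 probes that passed in controls and were tested in both, 1773 (93.9%) had the same sign in the cortisol mean, against 75.2% of all 9854 probes tested in both. Across those 9854 probes, which are not independent replicates, the mean differences of the treatments correlated at r = 0.664.

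**Figure D4:**
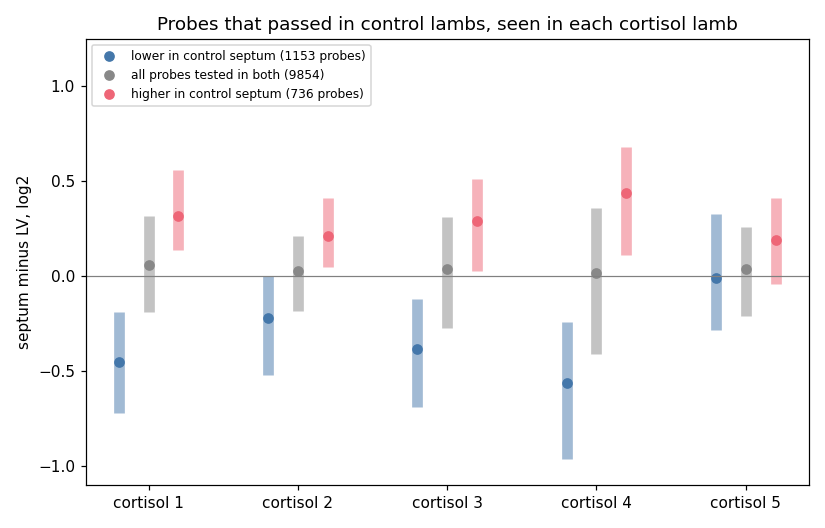
Septum minus LV (y axis, log2) in each of the 5 cortisol lambs (x axis) for probes that passed as lower or higher in control septum and for all probes tested in both treatments, as median (point) and quartiles (bar). The sets lie apart in cortisol 1 to 4, and in cortisol 5 the set lower in controls has a median of -0.01, close to the 0.04 of all probes.

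Cortisol 5 stood apart from the other lambs of its group. Its septum minus LV correlated across probes with the control mean at r = 0.0176, where cortisol 1 to 4 gave 0.444, 0.409, 0.406 and 0.426. Of the probes that passed in controls, 59.4% had the control's sign in cortisol 5, and 86.4%, 76.7%, 81.2% and 85.3% in cortisol 1 to 4. Of the probes lower in control septum 50.9% had that sign in cortisol 5, and of those higher in control septum 72.7% did. Between themselves the differences of cortisol 1 to 4 correlated at 0.0684 to 0.389 and those of the control lambs at 0.364 to 0.484. Cortisol 5 correlated with cortisol 1 to 4 at -0.141 to 0.0738, which overlaps the low end of their own range. Without cortisol 5, 0 of 9443 probes passed (0%), the lowest adjusted p in limma was 0.0905, and 1396 had an unadjusted p under 0.05 (14.8%).

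Slide and region overlapped on these arrays. In cortisol 1, 2 and 3 the LV arrays were on slide 3 and the septum arrays on slide 1, in cortisol 4 they were on slides 4 and 2, and in cortisol 5 both were on slide 2. Among the cortisol lambs the shared slide and the lamb therefore cannot be told apart. In control 1, 2 and 4 the LV arrays were on slide 3 and the septum arrays on slide 1, as in cortisol 1, 2 and 3. In these lambs region and slide cannot be told apart, and the part of slide in the agreement between treatments was not tested. Control 3 and 5 had both arrays on slide 2, like cortisol 5. Their differences correlated with the mean of the other controls at 0.593 and 0.540, where control 1, 2 and 4 gave 0.605, 0.641 and 0.570. Against the mean of control 3 and 5 alone, cortisol 1 to 5 correlated at 0.387, 0.297, 0.291, 0.367 and 0.0467. Against the mean of control 1, 2 and 4, with regions on separate slides, they gave 0.422, 0.435, 0.437, 0.408 and -0.00735. The latter values were higher in each of cortisol 1 to 4. Of the 20 leading genes 19, UCP1 among them, had the sign of the cortisol lambs in both control 3 and control 5. Within a lamb of cortisol 1 to 4 both arrays lay at the same position of their slides, and in cortisol 5 they did not.

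**Figure D5:**
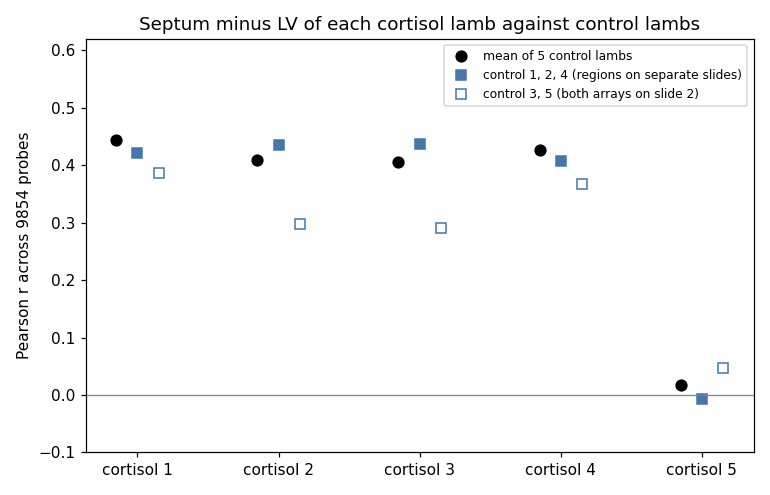
Pearson correlation across 9854 probes (y axis) of septum minus LV in each cortisol lamb (x axis) with the mean of the 5 control lambs, of the 3 whose regions were on separate slides and of the 2 with both arrays on slide 2. Cortisol 1 to 4 lie between 0.291 and 0.444, and cortisol 5 lies near 0 against each set.

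Array brightness did not follow region in every cortisol lamb. In control 1 to 5 septum was brighter throughout, by 1.36, 1.17, 1.14, 0.27 and 0.21 in the log2 75th percentile. The part of brightness in the control differences was not tested. The 75th percentile of the processed signal in LV was 99.8, 110, 99.2, 402 and 272 intensity units in cortisol 1 to 5, and in septum 177, 304, 155, 256 and 291. Septum was brighter in 4 of 5 lambs, by 0.47 ± 0.80 (SD) on the log2 scale (exact sign-flip test, two-sided p = 0.25; the smallest p that 5 lambs allow is 0.0625), and cortisol 4 went the other way with -0.65.

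Whether the regional difference itself was another one after cortisol was tested on the 10 within-lamb differences. In limma 0 of 10381 probes passed (0%), the lowest adjusted p was 0.997, and 365 had an unadjusted p under 0.05 (3.52%). None of the 20 leading genes had an unadjusted p under 0.05 in this test. The 5 named genes with the smallest p were ITGA4, an integrin of white cells (1), MYD88, an adaptor of innate immunity (1.19), EM4C (-1.93), the arginase ARG2 (0.52) and the clock repressor CRY1 (0.62), as cortisol minus control on the log2 scale. In cortisol lambs ITGA4 was well above background on 1 of 5 LV and 2 of 5 septum arrays, EM4C likewise on 1 and 2, and MYD88 on 0 of 5 LV and 3 of 5 septum arrays. In control lambs ARG2 was -0.91, -0.59, -0.11, -0.79 and -0.42, while in cortisol lambs its mean was -0.05 ± 0.12. For HAND1 the difference between treatments was 0.16, with a 95% interval of -0.43 to 0.76, and for COL3A1 it was 0.15, with an interval of -0.52 to 0.82, so changes of the regional difference within these intervals were not excluded.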

How the data were processed

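RNA of the septum and LV of 10 newborn lambs was hybridised to 20 one-colour Agilent sheep arrays, each with 15208 non-control spots for 15008 probes. Per the file headers, the deposited scanner intensities were background-subtracted and detrended by Agilent Feature Extraction 10.1.1.1. The deposited value table holds log2 values. Its septum columns had medians between 9.49 and 9.54 and its LV columns between 6.71 and 6.72, so each region has a scale of its own and the table was not used here. Its software is limma, per the submitters' processing notes; its centring was not given in the sources used here.

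From the processed intensities the log2 value minus the array's 75th percentile was computed, outlier spots were left out and spots of 1 probe averaged. Probes well above background on 5 or more of the 10 arrays were fitted with limma 3.58.1 in R 4.3.3, with lamb as a block and Benjamini-Hochberg adjustment (threshold 0.05). The fit was run on simulated data with planted differences larger than those of most leading genes, so recovery of smaller differences was not tested. Probes were named through RefSeq identifiers of the ARS-UI_Ramb_v3.0 table and array descriptions. A gene is represented by its brightest tested probe.

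Replicate numbers were taken to pair the regions of a lamb, though the labels do not state that they identify lambs. After group means were removed, each of the 10 LV arrays correlated best with the septum array of its own number (0.45 to 0.813 over 10069 probes). In cortisol 1 to 4 and control 1, 2 and 4 such arrays also shared the slide position, which cannot be told apart from the lamb. Cortisol 5, control 3 and control 5, at other positions of slide 2, gave 0.612, 0.661 and 0.645. Their highest values with another number were 0.183, 0.0582 and 0.0582. Slides were numbered 1 to 4. The number of arrays limits the precision.

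Named genes are the 20 with the smallest unadjusted p among genes of 1 sign in every lamb measured, the 2 with the smallest p of each list with 3 or more tested members, 18 genes fixed by name where measured, and 5 genes for the difference between treatments; some of them are not reported here. Members, lists and rule were chosen with earlier results of these data known. Alternatives covered scaling, background, filters, blocks, weights and single lambs.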

Additional observations from a re-analysis of the deposited data

Results flagged for a closer look

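In 4 of the 81 sets of 5 lambs examined, 1 lamb lay farther from the others than Dixon's criterion for 5 values allows, and chance alone gives this in about 5% of sets. ACTG1, a cytoplasmic actin, had a septum minus LV of -0.33 in cortisol 1, where the other lambs had 0.21 to 0.37. ESR1, the oestrogen receptor, had -3.17 in cortisol 4, where the others had -0.53 to 0.24. CRY1, a repressor of the clock, had 0.86 in cortisol 4, where the others had -0.04 to 0.21. The correlation of septum minus LV with the mean of the control lambs was 0.0176 in cortisol 5, where the others had 0.406 to 0.444.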

How the results depend on the processing

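For septum minus LV after maternal cortisol, 0 probes passed in limma under 18 of 21 alternatives, among them no replicate block, which ignores the pairing of the regions (0 passing, 164 at an unadjusted p under 0.05), and the range without any 1 lamb was 0 to 0. It was 1 with lamb as a random block, 1 with normexp background (the same unnamed skin-library probe in both) and 4 with slide and lamb as fixed blocks (1 higher, 3 lower), a fit that by construction rests on cortisol 5. For septum minus LV in control lambs the 1949 became 136 with no replicate block, 0 with normexp background (262 unadjusted), 1225 with no filter, 0 on slide 2 alone (1649 unadjusted) and 1005 to 1251 without any 1 lamb. The control count also rose, and its highest value over 11 alternatives was 2483. Fewer probes or fewer samples entered some of these fits, and otherwise the cause was not tested. The difference between treatments was 0 throughout, 44 unadjusted with no replicate block. No named gene passed under any alternative, and 20 of 75 took the other sign under at least 1, none of them among the 20 leading genes.

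Cortisol 5 alone, and equally slide and lamb as fixed blocks, turned the sign of CFL1 (0.26), NPY (0.19), PRKACA (0.22), NR2F2 (-0.22), NR3C2 (-0.01), ITGAV (-0.58), TEK (-0.1), OVAR-DQB (0.15), CD14 (0.32), FCER1G (0.46), PPARG (0.36), TPM1 (0.17), ACVR1 (-0.11), NR3C1 (-0.53), HBB (-0.06) and ARG2 (0.02). The cause of the other reversals was not tested. OVAR-DRA was -0.03 with array weights. Without any 1 lamb the values ranged from -0.45 to 0.03 for OVAR-DQB (positive without replicate 3; tested in 2 of these fits), from -1.69 to 0.17 for TPM1 (positive without replicate 4), from -0.1 to 0.02 for GJA1 (positive without 3 or 5), from -0.13 to 0.63 for TNNC2 (negative without 1 or 3) and from -0.09 to 0.03 for ARG2 (positive without 2). Slide as a random block without the lamb block gave FCER1G 0.04, TNNC2 -0.09 and ARG2 0.11, and with the lamb block TNNC2 -0.01. Brightness as a covariate gave GJA1 0.01 and TNNC2 -0.44. With normexp background ARG2 was 0 and the difference between treatments of EM4C was 0.01. Brightness itself was 0.23 to 0.76 without any 1 lamb. Few arrays, low signal near background and slides shared unevenly between regions limit these data.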
